A study of Mus musculus with 4 samples.

Results

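The 10 genes described here make up the MHC class II presentation machinery of the mouse. They were chosen by name from the feature list of the deposited matrices, which holds 31053 genes, and all 10 were found there. They are the chain genes H2-Aa, H2-Ab1 and H2-Eb1, the invariant chain gene Cd74, the peptide editors H2-DMa, H2-DMb1 and H2-DMb2, the editor inhibitors H2-Oa and H2-Ob, and the coactivator gene Ciita. Their level was followed in 6 classes of cells from the pancreas: B cells, type 1 and type 2 conventional dendritic cells (cDC1 and cDC2), macrophages with complement C1q genes, monocytes with Ace or Ear2, and T cells.

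MHC class II molecules are pairs of an alpha and a beta chain that display peptides from engulfed proteins to CD4 T cells. The chains assemble on the invariant chain, whose remnant is exchanged for a peptide with the help of H2-DM, while H2-DO restrains H2-DM. Transcription of the chain, Cd74 and H2-DM genes depends on CIITA, a coactivator that binds no DNA itself and docks on factors bound at a short promoter module. B cells, dendritic cells and many macrophages carry class II constitutively or on activation, and mouse T cells make little of it. In autoimmune diabetes, CD4 T cells meet islet peptides on class II in the pancreas and its draining lymph node.

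Both groups carried floxed Ocab alleles, written Ocabfl/fl. The control group had no Cre, and Ocabfl/fl.CD4-Cre mice expressed Cre recombinase from the Cd4 promoter, which is active in developing T cells. Ocab is an older name of Pou2af1, a transcriptional coactivator known from B cells. The pancreas libraries held CD45+ cells that had been sorted by flow cytometry from pre-diabetic females at 12 weeks of age, with 4 mice pooled per library. A pair of lymph node libraries held magnetically selected CD3 T cells of the pancreatic lymph node at 8 weeks, with 5 mice pooled per library. The labels give no strain. There was 1 library per group, so cells are not replicates, no test between genotypes was possible, and each difference compares libraries. The intervals given are 95% intervals that cover counting error only, not the spread between mice or preparations.

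The pancreas control library listed 4524 barcodes and the CD4-Cre library 6963. After filters on detected genes and mitochondrial reads and removal of likely doublets, 4004 and 6238 barcodes were kept, with medians of 3594.5 and 3600.5 unique molecular identifiers (UMIs) per barcode. Classes were gated on raw UMIs of marker genes that exclude the 10 members, so a class is only B-like, T-like and the like, though the short names are used here. Barcodes that met more than 1 gate, 7.62% of the control and 6.99% of the CD4-Cre library, were left out. The libraries shared 36 barcode sequences, 0.899% of the smaller. Pou2af1, the targeted gene, stood at 5.42 UMIs per 1000000 UMIs of the class (CPM; interval 3.93 to 7.31, 43 UMIs) in control T cells and at 0.628 (0.287 to 1.19, 9 UMIs) in CD4-Cre T cells, and at 228 and 248 CPM in B cells. No Pou2af1 UMI was counted in the 4 myeloid classes of either library.

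The gates held 905 control and 1336 CD4-Cre B barcodes, 22 and 33 of cDC1, 47 and 48 of cDC2, 79 and 50 C1q macrophages, 72 and 61 Ace/Ear2 monocytes, and 2060 and 3685 T barcodes. Marker genes not used in the gates were summed as a check. The B list (Pax5, Ebf1, Fcmr, Bank1) stood at 2335 and 2262 CPM in B cells, and the T list (Trac, Trbc2, Lck, Cd5) at 1829 and 1677 CPM in T cells. The cDC1 list (Naaa, Irf8, Cadm1, Wdfy4) stood at 3068 and 3555 CPM in cDC1. The cDC2 list (Cd7, Itgax, Ccr6, Plbd1) reached 1226 and 1441 CPM in cDC2 but 1779 and 1913 CPM in cDC1, so it does not set cDC2 apart from cDC1. Likewise the Ace/Ear2 monocyte list (Nr4a1, Treml4, Spn, Cebpb) stood at 3374 and 3216 CPM in its own class and at 2844 and 3000 CPM in neutrophils. The C1q macrophage list (Csf1r, Mrc1, Adgre1, Apoe) stood at 8417 and 5976 CPM in its class.

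Of the 10 members, 8 lie on chromosome 17 in GENCODE M21 on GRCm38, between 34092340 and 34316674, and all 10 are protein coding. RefSeq promoters on GRCm38.p6, from 250 bases before to 50 bases after the transcription start, were at hand for 7 members in 8 windows. A cyclic-AMP-response-like X2 box and an inverted CCAAT box, the Y box, are part of the promoter module to which CIITA is recruited. TGATTGG, the letters of a Y box, was searched on both strands, and so was TGATG or TGACG ending 10 to 30 bases before it, which the spacing keeps from overlapping it. TGATTGG lay on the gene strand in 6 of the 7 members and the pair in 5 of 7. Of 32851 RefSeq promoters of the same length, 4.01% held TGATTGG and 0.210% the pair on the gene strand, and 7.82% and 0.423% on either strand. The stretches that follow show the module in chain, editor and inhibitor genes and the lone Y box letters of H2-Oa, 5′ to 3′ on the gene strand, with both motifs in capitals. The last 5 bases of the H2-Oa stretch lie in its annotated first exon.
H2-Aa, chr17:34287863-34287922, minus strand: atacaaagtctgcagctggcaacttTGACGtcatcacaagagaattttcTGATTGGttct
H2-Eb1, chr17:34305757-34305816, plus strand: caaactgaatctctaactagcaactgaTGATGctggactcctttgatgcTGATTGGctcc
H2-DMb2, chr17:34145108-34145167, plus strand: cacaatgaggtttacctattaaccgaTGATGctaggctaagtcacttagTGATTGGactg
H2-Ob, chr17:34238797-34238856, plus strand: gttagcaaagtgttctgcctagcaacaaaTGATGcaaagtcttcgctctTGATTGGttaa
H2-Oa, chr17:34092285-34092344, plus strand: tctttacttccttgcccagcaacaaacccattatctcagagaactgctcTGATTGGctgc

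The spacer between the motifs was 19 bases in H2-Aa, 17 in H2-Eb1, 18 in H2-DMb1 and H2-DMb2, and 15 in H2-Ob. H2-Oa held TGATTGG without the upstream letters at that distance, and both H2-DMa windows held neither. A match describes letters and not a bound site, and no match says only that these letters are not in this window.

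All 10 members stood at least 4-fold above the T cell level of the same library, in both libraries, in B cells, cDC1 and cDC2. Over all genes with at least 20 UMIs in the class and T cells together, 5.7% passed that rule in B cells, 4.14% in cDC1 and 5.61% in cDC2. In C1q macrophages and in Ace/Ear2 monocytes 8 of 10 members passed, beside 6.63% and 6.54% of all genes, and the same pair, H2-Oa and H2-Ob, fell short in each. As class sums, the 8 other members were thus far above the T cell level in every presenting class, and the H2-DO genes only in B cells and dendritic cells. In Ace/Ear2 monocytes these sums came mostly from a minority of barcodes, as described below.

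**Figure D1:**
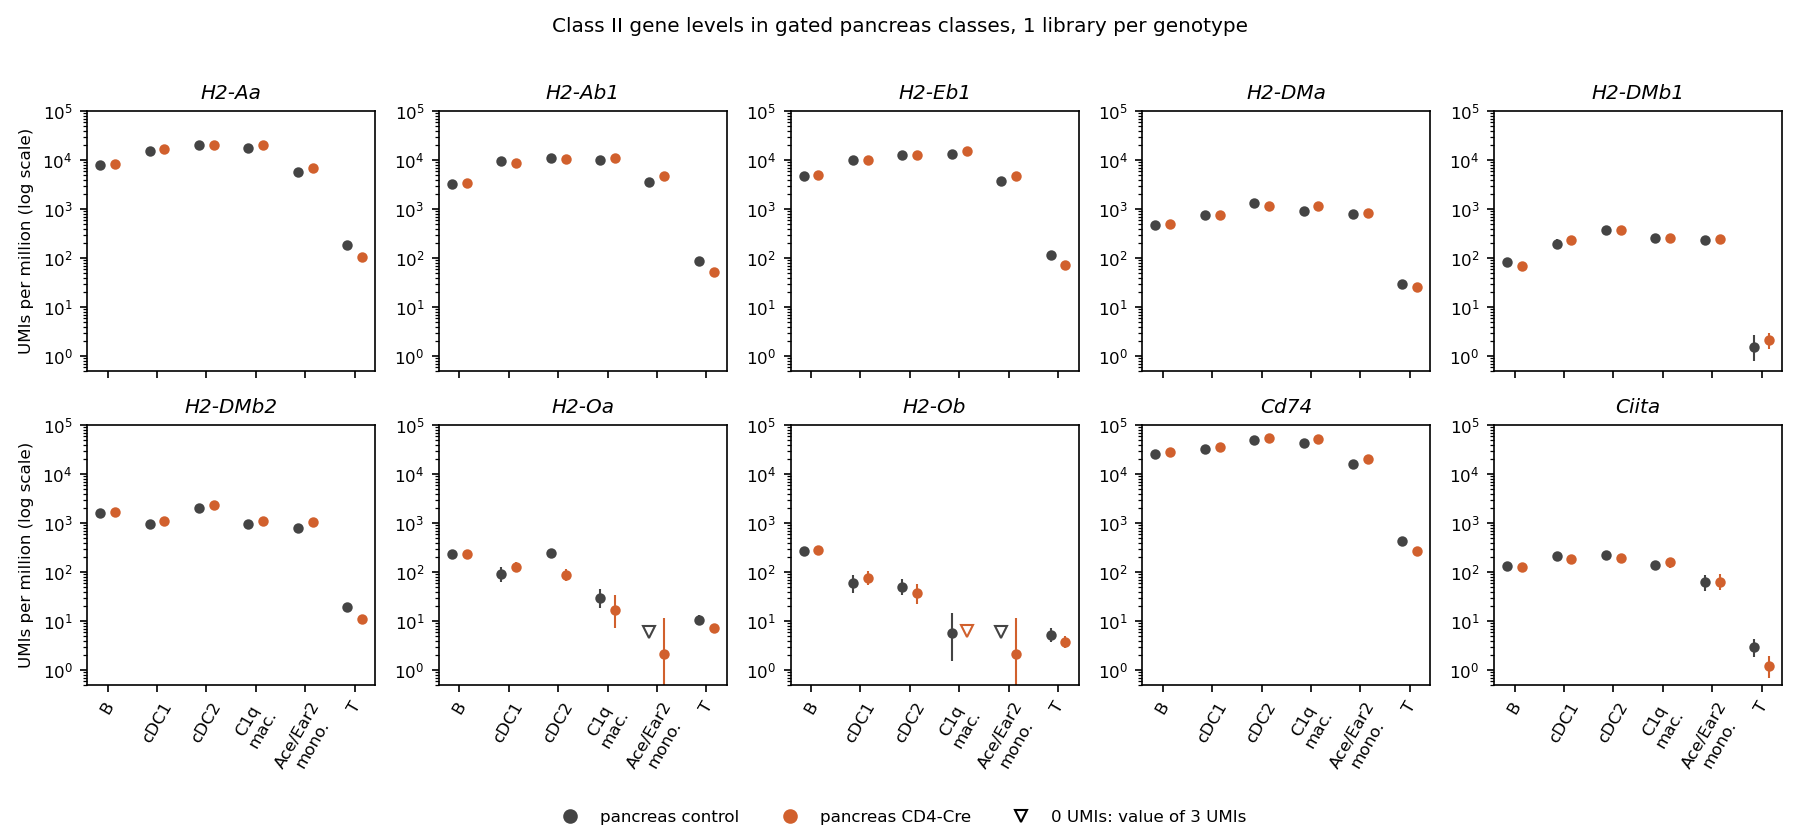
Level of each of the 10 members in 6 pancreas cell classes of the control and CD4-Cre libraries, in CPM on a log axis, with 95% Poisson intervals for counting error and open triangles at the value of 3 UMIs where 0 were counted. The chain genes and Cd74 are high in all 5 classes other than T cells, while H2-Oa and H2-Ob are high in B cells and at or near 0 in Ace/Ear2 monocytes.

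H2-Aa, H2-Ab1 and H2-Eb1 encode the alpha chain of I-A, the beta chain of I-A and the beta chain of I-E. Summed over the 3 genes, cDC2 gave 44181 CPM (43650 to 44716) in the control and 43797 (43257 to 44341) in the CD4-Cre library. C1q macrophages gave 41596 (41123 to 42072) and 47113 (46496 to 47736), so that cDC2 was the highest class in the control and C1q macrophages in the CD4-Cre library. Below them, cDC1 gave 35299 (34724 to 35881) and 36180 (35683 to 36681). Those 3 classes stood apart from B cells, which gave 15928 (15801 to 16055) and 16764 (16656 to 16874). Ace/Ear2 monocytes gave 13022 (12708 to 13341) and 16407 (16047 to 16774), below B cells in the control and with overlapping intervals in CD4-Cre. T cells came last, with 387 (374 to 401) and 233 (225 to 241).

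Each chain gene kept that gap between dendritic cells or C1q macrophages and B cells. H2-Aa was counted at 7959 CPM in control and 8496 in CD4-Cre B cells, against 20085 and 20624 in cDC2, 15471 and 17259 in cDC1, and 17841 and 20342 in C1q macrophages. H2-Ab1 stood at 3237 and 3355 CPM in B cells, 11044 and 10598 in cDC2, and 10122 and 11106 in C1q macrophages. H2-Eb1 stood at 4732 and 4914 CPM in B cells, 13051 and 12575 in cDC2, and 13632 and 15665 in C1q macrophages. Against cDC2 and C1q macrophages, the B cell level was relatively lowest for H2-Ab1 among the 3 genes. As ratios of UMIs compared across classes, H2-Aa per H2-Ab1 was 2.46 and 2.53 in B cells and between 1.49 and 2.01 in the other 4 presenting classes.

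Cd74 (chromosome 18, 60803848 to 60812652) encodes the invariant chain, which fills the groove during assembly and steers class II to endosomes. Its level was 25160 CPM in control and 27659 in CD4-Cre B cells, 33166 and 36008 in cDC1, 49136 and 54445 in cDC2, and 42853 and 51784 in C1q macrophages. In Ace/Ear2 monocytes it was 15915 and 19921 CPM. The order of classes for Cd74 followed that of the chain genes in the control, with cDC2 also first in CD4-Cre. In T cells Cd74 stood at 424 and 266 CPM, which is 1.68% and 0.961% of the B cell level.

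H2-DM is a dimer of the H2-DMa product with one of the beta chains encoded by H2-DMb1 and H2-DMb2. H2-DMa was counted at 479 CPM in control and 509 in CD4-Cre B cells, 760 and 755 in cDC1, 1316 and 1173 in cDC2, 918 and 1146 in C1q macrophages, and 779 and 843 in Ace/Ear2 monocytes. As class sums, monocytes thus held more H2-DMa than B cells, while their summed chain genes were no higher. The H2-DMa sum came mostly from a minority of monocyte barcodes, as described below. The other 46 control and 38 CD4-Cre monocyte barcodes stood at 177 and 108 CPM of H2-DMa, below the B cell level. UMIs of H2-DMa per UMI of H2-Aa were 0.137 and 0.121 in monocytes, 0.0655 and 0.0569 in cDC2, and 0.0602 and 0.0600 in B cells.

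The beta genes of H2-DM were used in different proportion by B cells and by the 4 myeloid classes described here. H2-DMb2 stood at 1573 CPM in control and 1716 in CD4-Cre B cells, 2024 and 2303 in cDC2, 973 and 1125 in C1q macrophages, and 807 and 1039 in Ace/Ear2 monocytes. H2-DMb1 stood at 81.9 and 68.6 CPM in B cells, 379 and 381 in cDC2, 260 and 256 in C1q macrophages, and 239 and 250 in Ace/Ear2 monocytes. As a share of the UMIs of both genes, H2-DMb1 took 4.95% (exact binomial interval 4.42 to 5.51) and 3.84% (3.47 to 4.24) in B cells. In the other classes its share was 17.2% and 17.8% in cDC1, 15.8% and 14.2% in cDC2, 21.1% and 18.6% in C1q macrophages, and 22.8% and 19.4% in Ace/Ear2 monocytes. All 8 of these values lay above both B cell values. Dendritic cells with Fscn1 and Ccl22 lay between, at 7.58% (3.69 to 13.5) and 9.89% (4.62 to 17.9), with intervals that reach the control B cell range. The genes are close copies: 257 words of 31 bases are shared by their annotated transcripts, 257 of the 1029 of H2-DMb1 and 20.6% of those of H2-DMb2. How the counting split reads between the copies was not tested, so levels of either gene are uncertain.

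H2-Oa and H2-Ob encode the chains of H2-DO, the inhibitor of H2-DM. In B cells H2-Oa stood at 235 CPM in control and 230 in CD4-Cre, and H2-Ob at 275 and 286, the highest level of H2-Ob among the 6 classes. In cDC1, H2-Oa stood at 91.0 and 127 CPM and H2-Ob at 59.0 and 76.7. C1q macrophages gave 29.5 and 16.9 CPM of H2-Oa, which is 2.82-fold and 2.38-fold the T cell level, and 4 UMIs and 0 UMIs of H2-Ob. The H2-Oa values rest on 21 and 8 UMIs in 9 of 79 and 4 of 50 barcodes. All T barcodes stood at 10.5 and 7.12 CPM of H2-Oa, and those under 10 chain UMIs at 6.94 and 5.56. In Ace/Ear2 monocytes the control library held 0 UMIs of either gene, which allows up to 5.96 CPM each by a floor of 3 counts, and CD4-Cre held 1 UMI of each.

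In cDC2 the pair stood apart from its balance in B cells. H2-Oa stood at 242 CPM (204 to 285, 145 UMIs) in the control and at 87.0 (64.6 to 115, 50 UMIs) in CD4-Cre cDC2, so the control value was near that of B cells. H2-Ob stood at 50.05 (30 UMIs) and 36.5 CPM (21 UMIs) there. UMIs of H2-Oa per UMI of H2-Ob were 0.855 and 0.805 in B cells, 1.54 and 1.65 in cDC1, and 4.83 and 2.38 in cDC2.

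Ciita (chromosome 16, 10480059 to 10528418) encodes the coactivator on which transcription of the chain, Cd74 and H2-DM genes depends. It was counted at 133 and 129 CPM in B cells, 212 and 186 in cDC1, 220 and 197 in cDC2, and 141 and 157 in C1q macrophages. As class sums, Ace/Ear2 monocytes had 61.6 and 62.4 CPM, below B cells in both libraries. These Ciita UMIs came mostly from a minority of monocyte barcodes, as described below. Without thinning, a Ciita UMI was found in 38.7% and 36.6% of B barcodes, 89.4% and 77.1% of cDC2 barcodes, and 23.6% and 26.2% of Ace/Ear2 barcodes. Median depths were 3561 and 3407 UMIs in B cells, 12960 and 12517.5 in cDC2, and 6003 and 6047 in Ace/Ear2 monocytes, so these shares are not comparable between classes without regard to depth. T cells, at 3370.5 and 3456 UMIs per barcode, gave Ciita at 2.90 and 1.19 CPM, with a UMI in 0.485% and 0.353% of barcodes. After each barcode was thinned to 1000 UMIs, the shares were 10.9% and 14.0% in B cells, 19.1% and 22.9% in cDC2, 8.33% and 4.92% in Ace/Ear2 monocytes, and 0.0976% and 0.109% in T cells.

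The summed levels hide how the chain genes were spread over single barcodes. The share of a barcode's UMIs that came from the 3 chain genes had a median of 1.70% in control and 1.78% in CD4-Cre B cells, 3.69% and 3.46% in cDC1, 4.63% and 4.59% in cDC2, and 5.07% in CD4-Cre C1q macrophages against 4.50% in the control. In B cells the 5th to 95th percentile ran from 0.812% to 2.44% in the control and from 0.888% to 2.68% in CD4-Cre. Only 8 of 905 and 16 of 1336 B barcodes lay under 0.5%. Barcodes with little chain gene content were thus rare among B cells, and among cDC2, where 1 barcode of 47 and 1 of 48 lay under 0.5%.

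**Figure D2:**
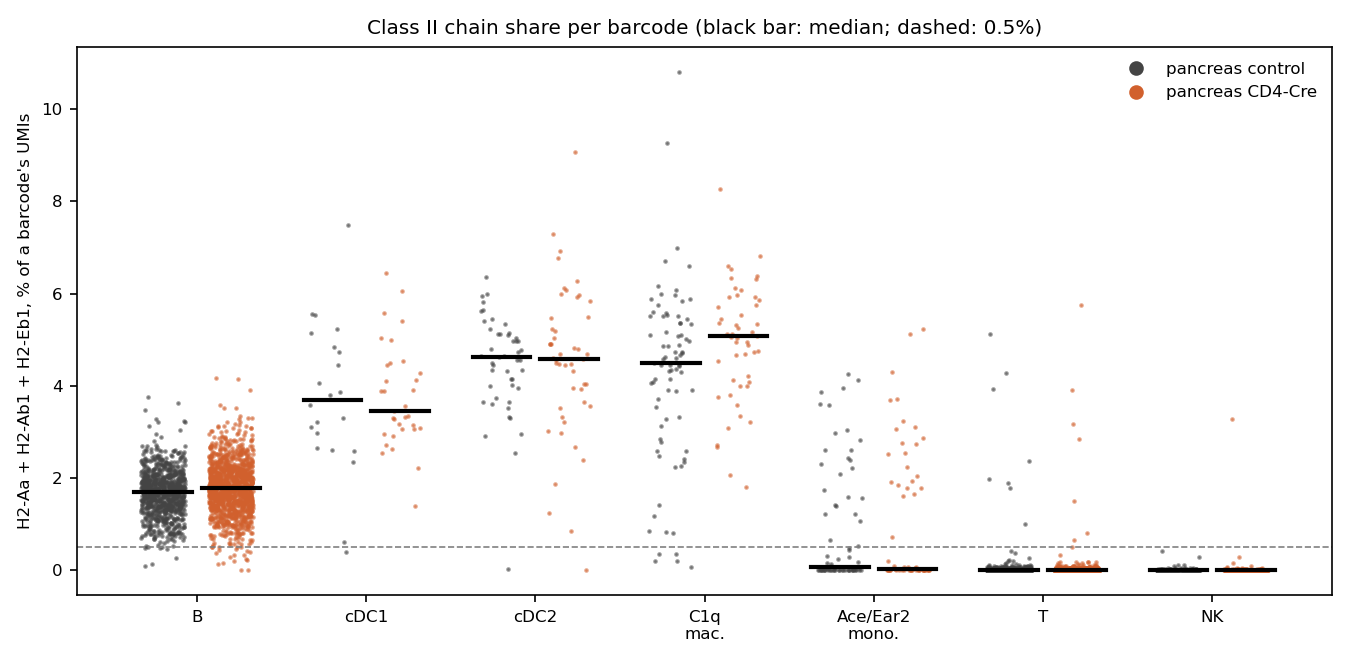
Share of each barcode's UMIs from H2-Aa, H2-Ab1 and H2-Eb1 in percent, by cell class and library, with 1 point per barcode, a bar at the median and a dashed line at 0.5%. Ace/Ear2 monocytes spread from 0 to above 4% with medians of 0.0592% and 0.0193%, while B barcodes gather around 1.70% and 1.78%.

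Ace/Ear2 monocytes differed from that picture. Their median chain gene share was 0.0592% in the control and 0.0193% in CD4-Cre, while the 75th percentile was 1.58% and 1.93% and the 95th 3.73% and 3.72%. Under 0.5% lay 46 of 72 control barcodes (63.9%) and 38 of 61 CD4-Cre barcodes (62.3%). The level of this class in sums was therefore carried by a minority of its barcodes.

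A division at 0.5%, chosen after these values were seen, put 26 control and 23 CD4-Cre barcodes on the high side. Those barcodes held 96.4% and 99.4% of the class's H2-Aa UMIs, 98.2% and 99.5% of H2-Ab1, and 92.4% and 97.3% of Cd74, which the division itself partly fixes. They also held 89.3% and 94.8% of H2-DMa, 91.1% and 98.2% of H2-DMb2, and 77.4% and 100% of the 31 and 30 Ciita UMIs. The high barcodes held 52.9% and 59.7% of all UMIs of the class. Per UMI, H2-DMa was higher in them in both libraries, at 1315 and 1340 CPM against 177 and 108. Ciita stood at 90.1 CPM (57.8 to 134) against 29.6 (11.9 to 60.9) in the control, where the intervals overlap. In CD4-Cre it stood at 105 CPM (70.6 to 149) against 0 (up to 19.0), where they do not. Low barcodes had H2-Aa at 435 and 103 CPM, H2-Ab1 at 135 and 56.8, and H2-Eb1 at 139 and 20.6. All T barcodes gave 183 and 108, 86.0 and 53.3, and 118 and 72.1 CPM for these genes, mostly from few barcodes, as described below. T barcodes under 10 chain UMIs, a limit set on these same genes, gave 18.3 and 13.3, 8.36 and 6.47, and 12.0 and 12.6 CPM. Cd74 stood at 2569 and 1311 CPM in low barcodes, against 424 and 266 in T cells. The high barcodes had median depths of 10097 and 12942 UMIs, against 4681.5 and 5131.5 on the low side. The Ace/Ear2 marker list stood at 1487 and 1284 CPM in high barcodes and at 5496 and 6074 CPM in low ones. The cDC2 list stood at 406 and 457 CPM in high and 765 and 604 CPM in low barcodes, the C1q list at 1022 and 1123 against 1550 and 1476, and the B list held 4 and 3 UMIs against 21 and 4. The cDC1 list stood at 323 CPM in high and 376 in low control barcodes, and at 408 (338 to 489) and 268 (200 to 352) in CD4-Cre, where it was the higher in high barcodes. Depth and the level of the class's own markers moved with the chain gene share, and their part in it was not tested.

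T cells were taken as background. In 88.3% of control and 89.8% of CD4-Cre T barcodes no chain gene UMI was counted. H2-Aa stood at 183 and 108 CPM, H2-Ab1 at 86.0 and 53.3, and H2-Eb1 at 118 and 72.1. Most of this came from few barcodes: 9 in each library held at least 10 chain UMIs, and these 0.437% and 0.244% of T barcodes held 90.2% and 86.2% of all chain UMIs in the class. The limit of 10 was chosen after the values were seen. It is set on chain UMIs, so it partly fixes the chain gene shares and their gap to other members. The same barcodes held 88.4% and 80.6% of Cd74 and 86.2% and 72.3% of H2-DMb2, but only 24.3% and 20.4% of H2-DMa, 34.9% and 22.5% of H2-Oa, and 23.8% and 5.56% of H2-Ob.

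These few barcodes were deeper, with medians of 13780 and 9241 UMIs against 3367 and 3452 in the other T barcodes. They held 0 UMIs of the B list, which allows up to 24.5 and 34.2 CPM by the Poisson interval. Their T list stood at 877 and 667 CPM against 1847 and 1684 in the rest, their cDC2 list at 751 and 806 against 236 and 235, and their cDC1 list at 419 and 120 against 36.8 and 25.3. The C1q macrophage list stood at 79.7 and 315 CPM against 3.60 and 1.83, and the Ace/Ear2 monocyte list at 498 and 445 against 296 and 244. Markers of dendritic cells, macrophages and monocytes were thus higher and those of T cells lower in them, and the part of that in their class II level was not tested. Without them, T cells gave H2-Aa at 18.3 and 13.3 CPM, H2-Ab1 at 8.36 and 6.47, H2-Eb1 at 12.0 and 12.6, and Cd74 at 50.2 and 51.9.

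**Figure D3:**
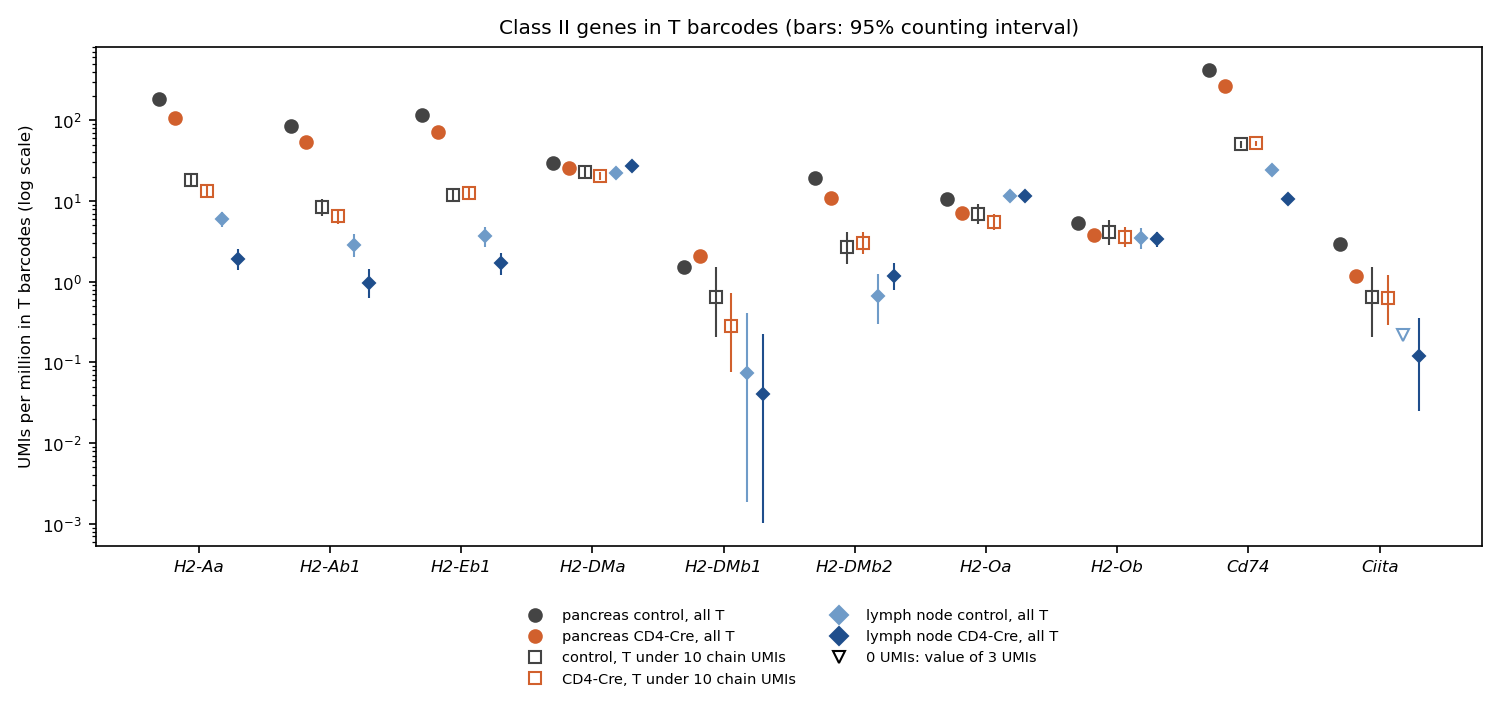
Level of each member in T cells in CPM on a log axis, for pancreas T barcodes with and without those holding at least 10 chain UMIs and for lymph node T barcodes (bars, 95% counting intervals, not drawn for all pancreas T barcodes; triangle, value of 3 UMIs where 0 were counted). Leaving out 9 barcodes in each pancreas library takes H2-Aa from 183 and 108 to 18.3 and 13.3 CPM, while H2-DMa goes from 29.6 and 25.7 to 22.9 and 20.6 CPM. Those barcodes were picked by their chain UMIs, which partly fixes the drop of H2-Aa.

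Between the tissues, H2-DMa, H2-Oa and H2-Ob behaved unlike the chain genes in T cells. Without the few barcodes, H2-DMa stood at 22.9 CPM in the control and 20.6 in CD4-Cre, H2-Oa at 6.94 and 5.56, and H2-Ob at 4.11 and 3.59, while H2-DMb1 stood at 0.643 and 0.281 and Ciita at 0.643 and 0.633. In lymph node T cells, selected by CD3 and at another age, H2-DMa stood at 22.1 CPM in control and 27.1 in CD4-Cre, H2-Oa at 11.7 and 11.4, and H2-Ob at 3.43 and 3.35. There H2-Aa was lower than in pancreas T cells, at 5.92 and 1.90 CPM, and so was Cd74 at 24.2 and 10.6. As folds, the pancreas over the lymph node level in all T barcodes was 30.99 and 56.7 for H2-Aa, but 1.34 (1.13 to 1.60) and 0.948 (0.832 to 1.08) for H2-DMa. The H2-Aa folds rested largely on the few barcodes: without those at 10 or more chain UMIs in either tissue they were 4.89 (3.53 to 6.87) and 10.6 (7.23 to 16.1), and those of H2-DMa 1.04 and 0.762. As that limit is set on chain UMIs, it partly fixes the smaller H2-Aa folds. Tissue, age and cell selection differ together in this contrast and cannot be told apart.

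The members' UMIs in T cells were also set against Cd74. UMIs of H2-DMa per 1000 UMIs of Cd74 numbered 19.0 and 18.4 in B cells, 69.9 (61.0 to 79.9) and 96.6 (86.6 to 108) in all pancreas T barcodes, and 912 and 2561 in all lymph node T barcodes. H2-Oa gave 9.35 and 8.32 in B cells, 24.7 and 26.8 in pancreas T cells, and 483 and 1080 in lymph node T cells. H2-Aa gave 316 and 307 in B cells, 433 and 405 in pancreas T cells, and 245 and 179 in lymph node T cells. Relative to Cd74, H2-DMa and H2-Oa were thus higher in T cells of both tissues than in B cells. Among pancreas T barcodes under 10 chain UMIs, H2-DMa gave 456 and 397, a limit that by itself also removes most Cd74 UMIs.

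H2-DMa was also counted in natural killer (NK) cells, at 25.3 and 32.6 CPM, and hardly in neutrophils, with 0 UMIs in the control and 1 UMI in CD4-Cre. After thinning each barcode to 1000 UMIs, a H2-DMa UMI was found in 2.29% and 2.13% of T barcodes, 1.71% and 2.79% of NK barcodes, and 37.6% and 42.0% of B barcodes. No H2-DMa UMI was found in 124 thinned neutrophil barcodes of the control, which allows a share of up to 2.93% by the exact binomial interval. The upper bound in the 70 thinned CD4-Cre neutrophils, also without a H2-DMa UMI, was 5.13%, so at this depth the thinned shares do not set neutrophils apart from T and NK cells. For Cd74 the thinned shares were 5.27% and 5.10% in T, 3.42% and 5.57% in NK and 4.84% and 5.71% in neutrophil barcodes, which is a like low share in all 3 kinds of cell.

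The genotypes were then compared class by class. In B cells the summed chain genes stood at 15928 CPM in the control and 16764 in CD4-Cre, with a log2 ratio of 0.07 (0.06 to 0.09). All 10 members had at least 20 UMIs over both libraries, and 0 of 10 were 1.5-fold apart, beside 9.99% of all genes with as many UMIs. Their log2 ratios ran from -0.26 for H2-DMb1 to 0.14 for Cd74, with a median of 0.06 against 0.07 over all genes. The median shift of the members in B cells was close to that of all genes.

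In dendritic cells the chain genes were as close. The log2 ratio of their sum was 0.04 (0.00 to 0.07) in cDC1 and -0.01 (-0.04 to 0.01) in cDC2. None of the 10 members was 1.5-fold apart in cDC1, beside 20.8% of all genes. In cDC2 1 of 10 was, H2-Oa, beside 21.1% of all genes in either direction and 11.3% lower in CD4-Cre. The median over members was 0.14 in cDC1 and -0.06 in cDC2, against -0.00 and -0.01 over all genes.

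H2-Oa in cDC2 had the widest gap between the libraries among members with at least 20 UMIs in the presenting classes. Its 145 control and 50 CD4-Cre UMIs gave a log2 ratio of -1.47, with an interval of -1.97 to -1.002. Barcodes with an H2-Oa UMI were nearly as frequent, 21 of 47 and 20 of 48. The difference lay in how many UMIs those barcodes held, with a maximum of 18 in 1 control barcode and 7 in 1 CD4-Cre barcode. The 5 barcodes with most held 47.6% of the control and 54% of the CD4-Cre UMIs, so the value rests on few cells. Under stricter gates, with 19 and 18 barcodes, the ratio was -0.53.

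In C1q macrophages the chain genes stood at 41596 CPM in the control and 47113 in CD4-Cre, with a log2 ratio of 0.18 (0.15 to 0.20). Of 9 members with enough UMIs, 7 were higher in CD4-Cre, beside 2892 of 5916 over all genes. Among the 9, 1 was 1.5-fold apart, beside 24.7% of all genes. That 1 was H2-Oa, with 21 control and 8 CD4-Cre UMIs and a log2 ratio of -0.80 (-2.19 to 0.43), an interval that includes 0. Their median was 0.19, against -0.01 over all genes. Acinar transcripts stood at 1092 and 905 CPM in this class and islet hormone transcripts at 572 and 434, values whose part in the ratio was not tested.

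Ace/Ear2 monocytes showed the largest median shift of members among the 5 presenting classes. The summed chain genes stood at 13022 CPM in the control and 16407 in CD4-Cre, with a log2 ratio of 0.33 (0.29 to 0.38). All 8 members with enough UMIs were higher in CD4-Cre, by 0.02 for Ciita to 0.39 for H2-Ab1, beside 2599 of 5263 over all genes. The 8 were counted in the same barcodes and are not separate observations. Of them, 0 reached 1.5-fold, beside 19.5% of all genes. The median was 0.31, against -0.01 over all genes. The barcode medians went the other way, at 0.0592% and 0.0193%, and the share of barcodes under 0.5% was 63.9% and 62.3%. Connective tissue and endothelial markers stood at 380 CPM in the control and 43.7 CPM in CD4-Cre monocytes, and their part in the ratio was not tested.

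**Figure D4:**
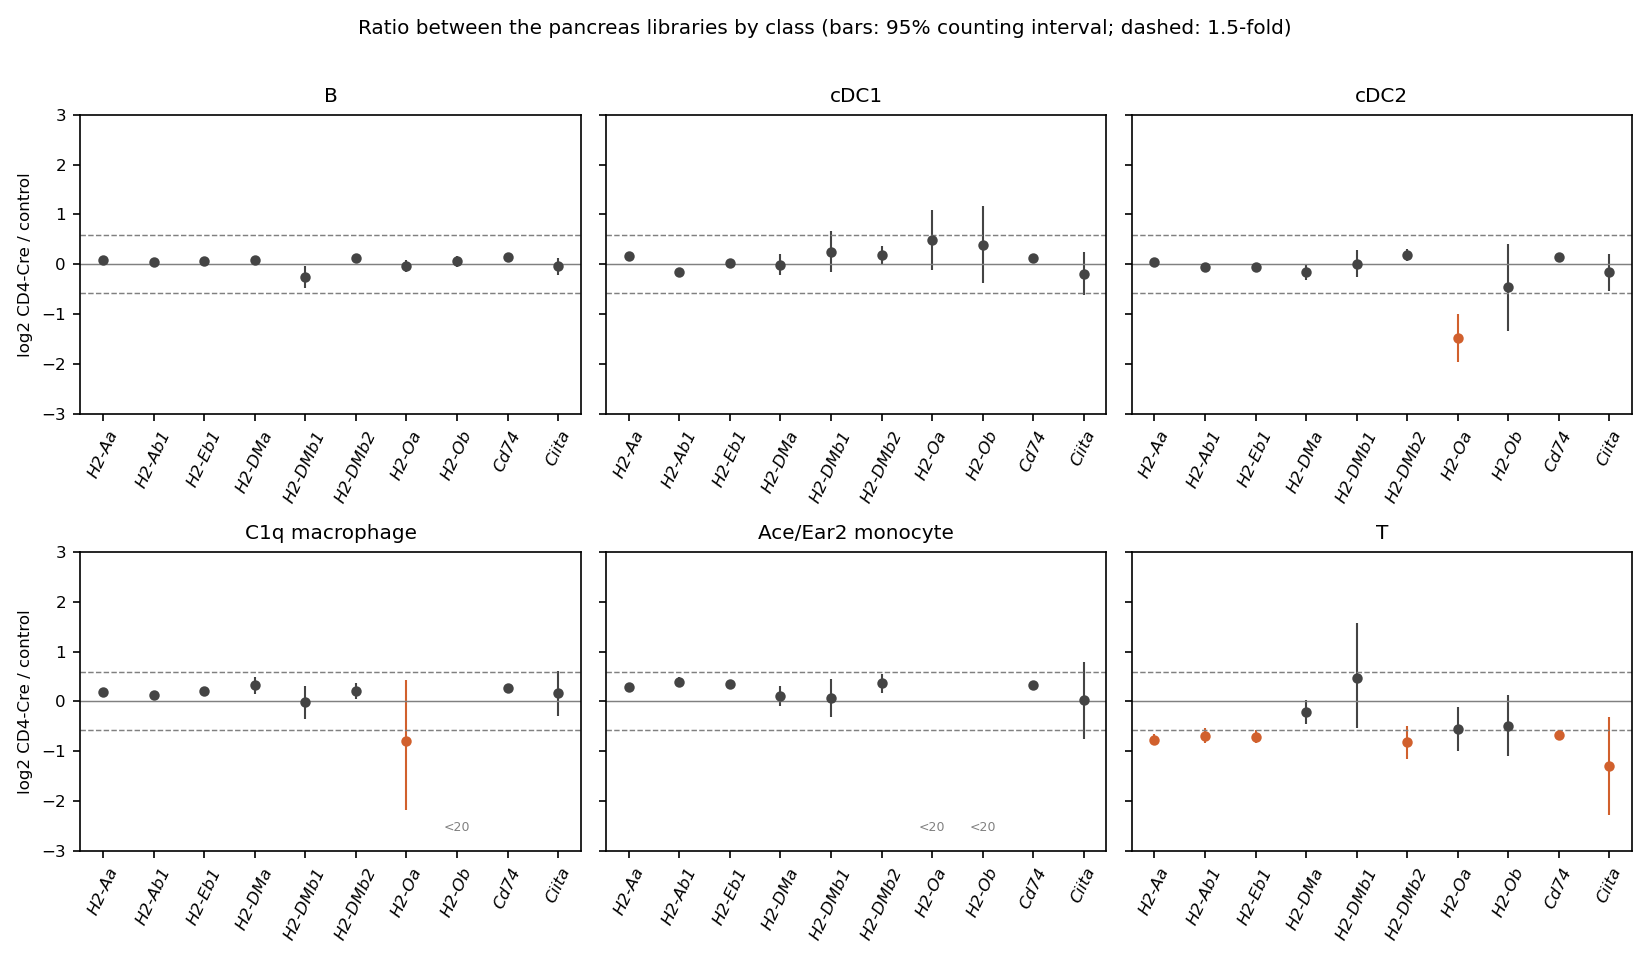
Log2 ratio of CD4-Cre over control for each member in 6 pancreas classes, with exact conditional 95% intervals for counting error dashed lines at 1.5-fold, members past it in orange, and members under 20 UMIs left out. Ratios in B cells lie between -0.26 and 0.14, H2-Oa in cDC2 lies at -1.47, and T cells lie mostly below 0.

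Among the 6 classes, T cells gave the lowest ratio of the chain sum and the lowest median over members, -0.68. The chain sum went from 387 to 233 CPM, a log2 ratio of -0.73 (-0.80 to -0.66), and 6 of 10 members were at least 1.5-fold lower, beside 9.24% of all genes in either direction and 6.08% lower. Without the 9 barcodes in each library that held at least 10 chain UMIs, the ratio was -0.25 and 0 members were 1.5-fold apart. Those barcodes were picked by the same chain UMIs that the ratio compares, so leaving them out partly fixes the smaller ratio. The source of the T cell difference was not tested. NK cells went the other way, from 70.7 to 396 CPM for the chain sum, and 3 of the 325 CD4-Cre barcodes held 93.8% of the 583 chain UMIs there.

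Other genes of the pathway were read from a list of 30, of which 28 were in the feature list. At least 4-fold above T cells in both libraries were 10 of 28 in B cells, 10 in cDC1, 12 in cDC2, 13 in C1q macrophages and 12 in Ace/Ear2 monocytes, beside 5.7%, 4.14%, 5.61%, 6.63% and 6.54% of all genes in that order. In B cells these were the transcription factors Irf8 and Spi1, the lysosomal proteases Ctsh, Ctsz and Lgmn, the ubiquitin ligase March1 and its antagonist Cd83, which set how long class II stays at the surface, and the costimulatory genes Cd86, Cd40 and Icosl. The same 10 passed in cDC1. Irf8, a factor required for cDC1, stood at 1638 and 1901 CPM there, at 441 and 491 in B cells and at 18.4 and 27.8 in cDC2, which passed with Irf4 in its place. Ctss, the protease that trims the invariant chain, stood at 2414 and 2368 CPM in C1q macrophages and at 1316 and 1138 in cDC2, and did not pass in B cells or cDC1.

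Between genotypes, 1 of 26 such pathway genes with at least 20 UMIs was 1.5-fold apart in B cells, 3 of 19 in cDC1 and 5 of 22 in cDC2, beside 9.99%, 20.8% and 21.1% of all genes. In C1q macrophages 3 of 24 were higher and 4 lower in CD4-Cre, beside the 24.7% of all genes given above. Among the lower was Cd40, the receptor for T cell help, at 91.4 CPM in the control and 31.8 in CD4-Cre, with a log2 ratio of -1.52 (-2.44 to -0.70). Icosl, a ligand of the same costimulation list, went the other way, from 19.7 to 44.5 CPM with a log2 ratio of 1.18 (0.13 to 2.26). In Ace/Ear2 monocytes 2 of 22 were higher and 2 lower, beside 19.5% of all genes, and the median log2 ratio of the 22 was -0.10, beside 0.31 for the 8 members.

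Genes with a pattern most like the members were ranked by Pearson's r with the mean of the members over 12 points, the 6 classes in 2 libraries, among 9184 genes with at least 200 UMIs. The points share libraries and depth, and r is a description that leaves the size of a change aside. Dapp1, for one, stood at 64.2 and 65.1 CPM in B cells and at 24.7 and 27.7 in T cells. Ncf1 stood at 147 and 152 CPM in B cells and at 6.81 and 5.03 in T cells. The highest were Dapp1 (0.967), Ncf1 (0.964), Herpud1 (0.954), Stx7 (0.953) and Unc93b1 (0.950), followed by Fgd2, Scimp, March1, Plekho1 and Gpr137b, the last at 0.940. Dapp1 encodes an adaptor of B cell receptor signalling, Ncf1 a subunit of the phagocyte oxidase, and Unc93b1 a chaperone of endosomal Toll-like receptors. Among the members, Ciita followed the mean most closely (0.992), and H2-Oa (0.598) and H2-Ob (0.457) least.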

How the data were processed

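The deposited values are counts of UMIs per gene and barcode from a 5′ single-cell kit, whole and not normalized. The matrices have software version 3.0.0 per the file headers, and per the submitters' processing notes Cell Ranger and mm10 were used. The authors' barcode and feature files hold names only. Cells are not replicates, and each group is 1 library, so no p-value was computed.

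A barcode was kept when it had 500 or more detected genes and no more than 10% mitochondrial UMIs. Likely doublets were scored against 2 simulated doublets per barcode and removed at 0.8% per 1000 barcodes listed, 164 in the control and 388 in the CD4-Cre pancreas library. B barcodes had at least 2 genes of a B cell marker set that includes Cd79a, Cd79b and Ms4a1, with at least 3 UMIs over the set. T barcodes had at least 2 of Cd3d, Cd3e and Cd3g. At least 2 UMIs over Xcr1 and Clec9a gave cDC1, and at least 1 Cd209a UMI with at least 2 over Cd209a, Clec10a, Mgl2, Flt3 and Sirpa gave cDC2. C1q macrophages had at least 5 UMIs over at least 2 of C1qa, C1qb and C1qc, and monocytes at least 3 over Ace and Ear2. Barcodes with Fscn1 and Ccl22, plasma, plasmacytoid dendritic, NK and neutrophil barcodes were gated apart.

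UMIs were summed per class and library and divided by all UMIs of those barcodes (CPM). Sums have Poisson, shares Clopper-Pearson and ratios conditional binomial 95% intervals, all exact. A count of 0 has a floor of 3 counts. Genes with 20 or more UMIs in the pair of libraries entered genotype ratios, and a ratio of 1.5-fold was the rule of size. UMIs were not corrected for free RNA. The interval code was tested on simulated data. Alternatives used edgeR 4.0.16 TMM and DESeq2 1.42.0 size factors on the counts, with Python 3.11.15, scipy 1.17.1 and R 4.3.3. Sequences came from RefSeq on GRCm38.p6. Ifi30 and H2-Ea-ps, on the pathway list, were not among the features.

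Named genes were all members, the pathway list, and the 10 genes most correlated with the members on log2(CPM + 10). The members and lists were chosen with earlier results of these data known.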

Additional observations from a re-analysis of the deposited data

Results flagged for a closer look

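In T cells and NK cells H2-Aa, H2-Ab1, H2-Eb1 and Cd74 went in opposite directions between the libraries, and the difference between the 2 classes was not tested. For H2-Aa the log2 of CD4-Cre over control was -0.77 in T cells and 2.88 in NK cells. For H2-Ab1 the ratios were -0.69 and 2.63, for H2-Eb1 -0.71 and 1.98, and for Cd74 -0.67 and 2.83. In each case few barcodes held most UMIs: 9 of 2060 control and 9 of 3685 CD4-Cre T barcodes held 90.2% and 86.2% of the chain UMIs, and 3 CD4-Cre NK barcodes held 93.8%.

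In lymph node T cells, which enter no genotype comparison above, H2-DMa had 22.1 CPM in the control and 27.1 in the CD4-Cre library. Its log2 ratio was 0.30 (0.10 to 0.50), with 1 library per group and no replicate check. Larger ratios in the other direction were found there for H2-Aa, -1.64 (-2.19 to -1.10), H2-Ab1, -1.56, H2-Eb1, -1.11, and Cd74, -1.19 (-1.43 to -0.95). Without the 2 T barcodes in each library that held at least 10 chain UMIs, H2-Aa stood at 3.74 and 1.25 CPM and Cd74 at 15.7 and 9.50. The control library held 42 B, 9 cDC1 and 27 Fscn1 and Ccl22 dendritic barcodes, and the CD4-Cre library 0, 0 and 4. Their part in the T cell ratios was not tested.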

How the results depend on the processing

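The count of members at least 4-fold above T cells stayed at 8 to 10 under all 62 combinations of class and alternative that gave a value, within 1.5 times the value above in each. The log2 ratio of the summed chain genes moved by more than its counting interval in 17 of 76, and none of these 17 changed the direction of a ratio whose interval excluded 0. In B cells it was 0.0118 with TMM and 0.0156 with DESeq2 size factors. In cDC1 it was 0.25 with gate minimums doubled, 0.0819 with TMM and 0.0741 with DESeq2. In cDC2 it was -0.0531 with strict gates, 0.11 with doubled minimums, 0.0139 as a mean over barcodes and -0.0538 with DESeq2. In C1q macrophages it was 0.22 as a mean over barcodes and 0.11 when barcodes that met both the C1q and Ace/Ear2 gates were added. In Ace/Ear2 monocytes it was 0.22 with doubled minimums and 0.22 as a mean over barcodes. In T cells it was -0.43 with strict gates, -0.50 with doubled minimums, -0.82 as a mean over barcodes and -0.25 without barcodes holding at least 10 chain UMIs. The cause was not tested.

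The number of members 1.5-fold apart in cDC2 was 2 with at least 1000 genes and at most 5% mitochondrial UMIs and 0 with strict gates. In C1q macrophages it was 0 with doubled minimums, as a mean over barcodes, with a pseudocount of 10 CPM, with a minimum of 50 UMIs, and with the merged gates. In T cells it was 0 with strict gates, 2 with doubled minimums and 0 without the barcodes with at least 10 chain UMIs. The H2-Oa ratio in cDC2 was -0.53 with strict gates, -0.83 with doubled minimums and -0.89 as a mean over barcodes, and between -1.57 and -1.38 otherwise. Merging the gates and leaving out T barcodes were chosen after the data were seen. Strict gates gave no value for cDC1, C1q macrophages and Ace/Ear2 monocytes, where fewer than 10 barcodes were left in a library. No paired analysis was possible because each group is 1 library and no result comes from a test.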
